A study of Saccharomyces cerevisiae with 36 samples.

Results

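The genes described here encode 10 factors that start translation in budding yeast, out of 5713 named genes on the arrays. They are SUI1 (eIF1), TIF11 (eIF1A), the 3 subunits of eIF2 (SUI2, SUI3 and GCD11), TIF5 (eIF5), FUN12 (eIF5B), the cap-binding protein CDC33 (eIF4E) and the scaffolds TIF4631 and TIF4632 (eIF4G1 and eIF4G2). The list was chosen by name because the transcript of SUI1 fell within minutes of caffeine in these same data. The caffeine values at 5 and 15 min therefore selected the group, and they are given below as a description with no test. The list was drawn up with earlier results of these data known, so that tests in other conditions are not wholly independent of it. All 10 genes were found, each on 2 spots and with a value on every one of the 36 arrays. SUI3 and TIF5 share chromosome XVI and the eIF4G genes share VII, and each other member is alone on its chromosome.

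Initiation begins when eIF2, bound to GTP and the initiator tRNA, joins the small ribosomal subunit together with eIF1, eIF1A and eIF5. eIF4E holds the cap of the mRNA and eIF4G links it to the helicase that opens the leader, so that the subunit can scan. At the start codon eIF1 leaves, eIF2 hydrolyses its GTP with the help of eIF5, and eIF5B brings in the large subunit. In yeast the genes of the translation machinery are known to be expressed strongly in growing cells and to be lowered in many stresses.

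Cultures of Saccharomyces cerevisiae (the strain is not given in the sources used here) received calcofluor white at 0.02 or 0.1 mg/ml, congo red at 0.02 or 0.1 mg/ml, or caffeine at 2 or 20 mM, for 5, 15 or 90 min. The first 2 are dyes with an affinity for cell wall polysaccharides. Caffeine, a purine alkaloid, is used as a test of cell wall integrity. Each treated culture was compared on 1 array with RNA of untreated cells of the same time, and the 18 conditions have 2 biological replicates each. Treated RNA carried Cy5 in replicate 1, and the dyes were swapped in replicate 2.

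Each value is a log2 ratio, read as treated over untreated and relative to the median gene of the array. The deposited values were taken to be natural logs. The direction is an assumption, because the files do not state it, and a ratio to the median gene does not show an absolute amount. In whole cultures, fewer cells with a transcript and less of it per cell cannot be told apart. A value with ± is the mean of the 2 arrays with its standard error (SE) from a limma fit over all arrays, which rests on 1 residual variance per gene and not on the spread of the 2 arrays beside it. A gene rose or fell where its p, adjusted by Benjamini-Hochberg over all genes, was under 0.05. On 7 arrays a part of the labels named another dose or time than the title, which was followed. For caffeine this touched only replicate 1 of 20 mM at 15 min, where 1 channel is labelled with another time. Replicate 1 of caffeine 2 mM at 5 min and at 15 min ran against each other over all genes (r = -0.375), so that the direction of these 2 arrays is not settled.

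SUI1 encodes eIF1, which keeps the scanning ribosome open until a start codon is found. In caffeine 20 mM its log2 ratio was -1.05 and -1.26 on the 2 arrays at 5 min, and -2.41 and -2.39 at 15 min. All 4 arrays lay far below 0, and the replicates stood close together. At 15 min the mean of -2.40 ± 0.16 had rank 3 from the lowest of 5258 genes, and at 5 min the mean of -1.16 ± 0.16 had rank 24 of 5260. These values picked the gene and carry no test.

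At 90 min of caffeine 20 mM, which was not part of the stated reason for the choice, SUI1 measured -1.22 and -1.31. The mean of -1.26 ± 0.16 is 2.40-fold below the untreated cells (95% interval of the log2 ratio -1.59 to -0.94), and the fall passed the test (limma, adjusted p = 1.60e-06). With all arrays scaled to 1 spread it was -0.68 and still passed (adjusted p = 0.00318). It had rank 87 from the lowest of 5270 genes.

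In caffeine 2 mM the SUI1 values were 0.44 and -0.17 at 5 min and -0.57 and -0.67 at 15 min, again without a test. With the sign of replicate 1 turned, the means of 0.14 at 5 min and -0.62 at 15 min became -0.31 and -0.05. At 90 min the arrays gave 0.44 and -0.37, on opposite sides of 0, and the mean of 0.04 ± 0.16 did not pass (adjusted p = 0.949).

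**Figure D1:**
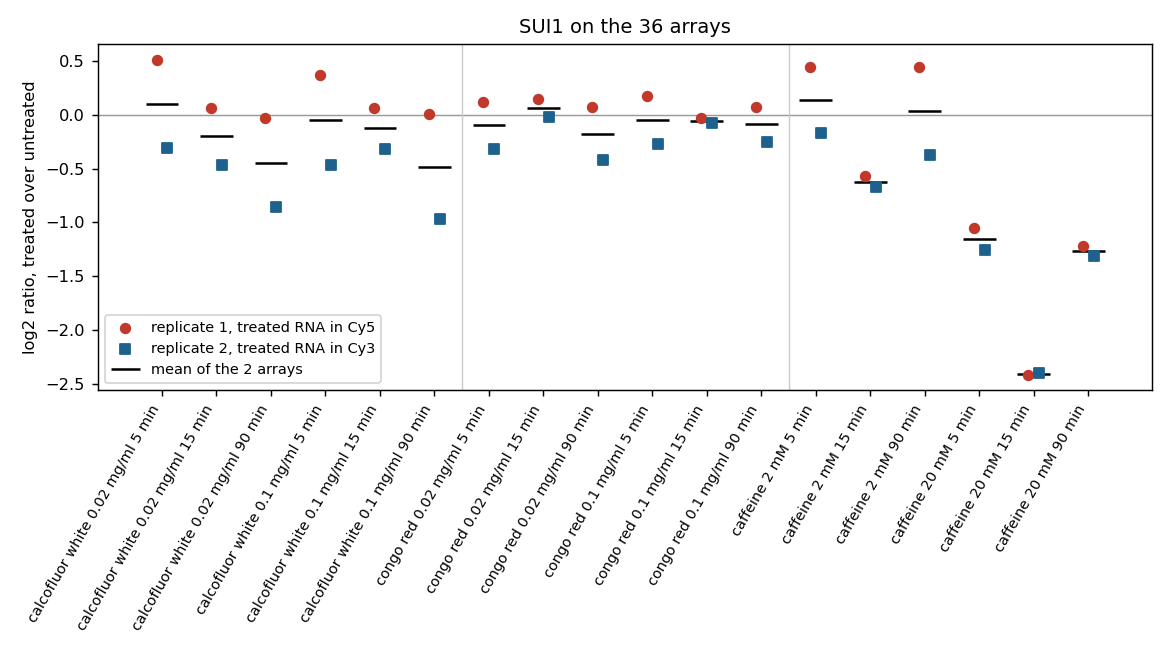
Log2 ratio of SUI1 (y axis) on both arrays of the 18 conditions (x axis), with red circles for replicate 1, blue squares for replicate 2 and a black bar for the mean of the 2 arrays. The 6 arrays of caffeine 20 mM lie between -1.05 and -2.41, below every other array, and replicate 1 stands above replicate 2 in 17 of 18 conditions.

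Ordered by its mean, SUI1 was lowest in caffeine 20 mM at 15 min, then at 90 and 5 min, then in caffeine 2 mM at 15 min (-0.62) and calcofluor white 0.1 and 0.02 mg/ml at 90 min (-0.48 and -0.45). The places of the caffeine values at 5 and 15 min, which selected the gene, are a description. That of caffeine 2 mM at 15 min also rests on an array of unsettled direction, and with replicate 1 turned its mean was -0.05. Among the 13 other conditions that did not choose the gene, from calcofluor white 0.1 mg/ml at 90 min upward, neighbours were at most 0.25 apart, with an SE of 0.22 for each step. All means of congo red lay between -0.18 and 0.06.

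SUI1 also carried an offset between the dye orientations. Replicate 1 was above replicate 2 in 17 of 18 conditions, and the dye term of the fit was 0.45 ± 0.07, larger than that of 71.7% of the 4242 genes measured on all arrays. In caffeine 20 mM both orientations gave the fall.

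At 90 min of caffeine 20 mM, 6 of the 10 factors fell and 1 rose. Over all genes tested 44.6% changed in that condition, 22.5% lower and 22.1% higher, so the count of falling members stands beside a background in which about as many genes rose as fell. The median of the 10 genes was -0.51, against -0.03 for all genes. With all arrays scaled to 1 spread the median was -0.28 and 4 of the 10 passed, beside 17.1% of all genes: SUI1, TIF11 (-0.58), SUI3 (-0.50) and GCD11 (-0.44). SUI2 and FUN12 also missed the threshold without the dye term (adjusted p = 0.0536 and 0.19) and with array weights (0.0521 and 0.138).

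TIF11 encodes eIF1A, the partner of eIF1 on the small subunit. It measured -0.88 and -1.36 on the 2 arrays, a mean of -1.12 ± 0.10 or 2.17-fold lower (adjusted p = 1.14e-08). Without either array it still passed, with means of -1.34 and -0.89. At 5 and 15 min of the same dose its means had been 0.00 and -0.30, where SUI1 had stood at -1.16 and -2.40.

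The 3 subunits of eIF2 bring the initiator tRNA. SUI3, the beta subunit, measured -0.70 and -1.25 at 90 min, a mean of -0.98 ± 0.17 (adjusted p = 9.01e-05). GCD11, the gamma subunit that binds GTP and the tRNA, measured -0.37 and -1.48, a mean of -0.93 ± 0.16 (adjusted p = 6.19e-05). SUI2, the alpha subunit that is phosphorylated by the kinase Gcn2, measured -0.52 and -0.55, a mean of -0.54 ± 0.13 (adjusted p = 0.00216). All 6 values were below 0, but the 2 arrays of GCD11 were widely apart, and without replicate 2 its mean was -0.53 and did not pass (adjusted p = 0.0531). SUI2 did not pass without replicate 2 either (-0.35, adjusted p = 0.189).

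At 5 min of caffeine 20 mM the means of SUI3, GCD11 and SUI2 were -0.01, 0.00 and -0.10. At 15 min they were -0.50, -0.16 and -0.19. These values, from conditions that chose the list, are a description only.

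FUN12 encodes eIF5B, the GTPase that joins the ribosomal subunits. It measured -0.51 and -0.47 at 90 min of caffeine 20 mM, a mean of -0.49 ± 0.18 (adjusted p = 0.034). Its means at 5 and 15 min were -0.32 and -0.73. The fall at 90 min did not pass without replicate 1 (-0.24, adjusted p = 0.49), nor in a fit of the caffeine arrays alone (adjusted p = 0.157).

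TIF5 encodes eIF5, which makes eIF2 hydrolyse its GTP. It measured 0.03 and -0.57 at 90 min, and the mean of -0.27 ± 0.15 did not pass (adjusted p = 0.152, 95% interval -0.58 to 0.04). It was the highest of the 10 genes at 5 and 15 min, with means of 0.18 and 0.29.

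Among the genes around the cap only TIF4632 passed the test. TIF4632, the less abundant of the yeast eIF4G proteins, measured 1.01 on both arrays, a mean of 1.01 ± 0.31 or 2.01-fold higher (adjusted p = 0.0119). Its 2 spots differed more than those of any other member, by a median of 0.35, and the rise did not pass without either array (adjusted p = 0.0697 and 0.167) or in the caffeine arrays alone (0.0958). TIF4631, which encodes the main eIF4G, measured -0.28 and -0.50, and its mean of -0.39 ± 0.20 did not pass (adjusted p = 0.121). The scaffolds are paralogs, and signal shared between their spots was not tested.

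CDC33, the gene of eIF4E, measured 2.45 in replicate 1 and -1.28 in replicate 2. The 2 orientations contradicted each other, and the mean of 0.59 ± 0.34 did not pass (adjusted p = 0.177). Over the series, replicate 1 was above replicate 2 in 18 of 18 conditions. The dye term was 1.36 ± 0.16, larger than that of 99.5% of genes, and the residual SD of 0.53 was the highest of the 10. At 15 min of caffeine 20 mM both arrays were low (-0.88 and -1.33, mean -1.10), and at 5 min they were 0.13 and -0.98.

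**Figure D2:**
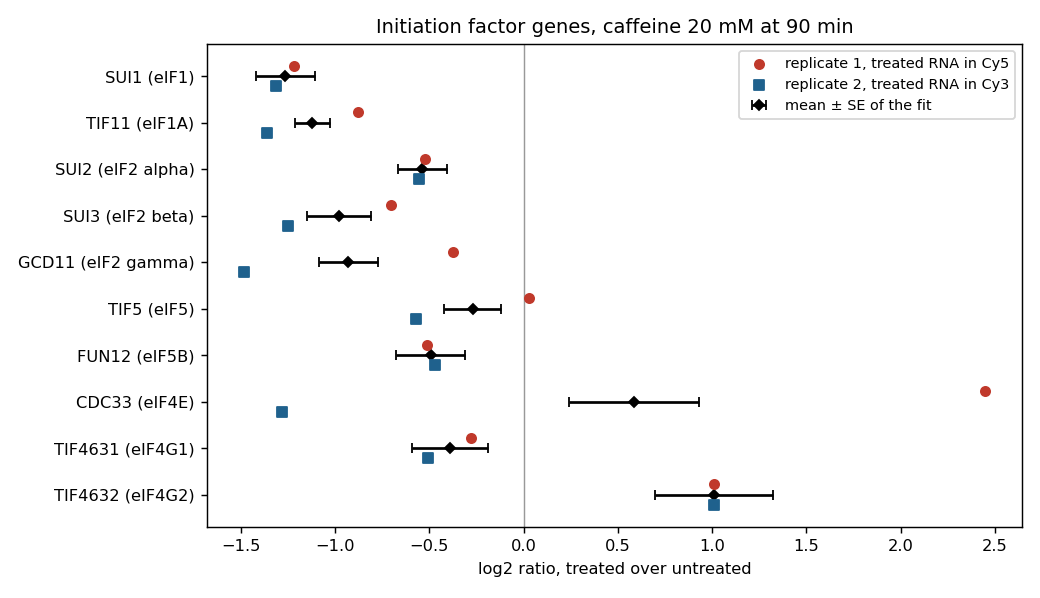
Log2 ratio (x axis) of each initiation factor gene (y axis) in caffeine 20 mM at 90 min, with red circles for replicate 1, blue squares for replicate 2 and black diamonds for the mean ± SE of the fit. For 7 genes both arrays lie below 0, for TIF4632 both lie at 1.01, and TIF5 and CDC33 have arrays on opposite sides of 0.

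At 90 min 6 members differed between the caffeine doses in the main fit, and fewer did in several other settings. The 2 arrays of caffeine 2 mM at 90 min ran against each other over all genes (r = -0.266). In caffeine 2 mM 0 of the 10 genes passed the test, as did 0% of all genes. At an unadjusted p under 0.05 were FUN12 (0.87 and 0.03 on the arrays, mean 0.45 ± 0.18) and TIF4632 (1.31 and 0.08, mean 0.69 ± 0.31), 2 of 10 beside 10.8% of all genes, and no other tool was run. In the difference of 20 mM minus 2 mM, SUI1 stood at -1.30 ± 0.22 on the log2 scale (adjusted p = 0.000189). TIF11 stood at -0.97 ± 0.13 (adjusted p = 2.26e-05), FUN12 at -0.94 ± 0.26 (0.0105) and GCD11 at -0.94 ± 0.22 (0.00347).

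SUI3 stood at -0.79 ± 0.24 (0.0195) and SUI2 at -0.52 ± 0.19 (0.0447) in this difference. Over all genes tested 23.5% differed between the doses, 12.1% lower at 20 mM. For 7 of the 10 genes, these 6 and TIF4631, both arrays of 20 mM lay below both arrays of 2 mM. The share of all genes in that order was not counted, so that this count is a description only. TIF4631 missed the threshold (-0.77 ± 0.28, adjusted p = 0.0553). The difference of TIF4632 was 0.32 ± 0.44, with a 95% interval of -0.60 to 1.23, so that a different response to the doses was not shown for it. Without the dye term the count of members that passed was 2 of 10, beside 502 of 5262 genes. With all arrays scaled to 1 spread it was 1, beside 150 of 5262 genes. It was also lower without replicate 1 of caffeine 2 mM. SUI2 missed the threshold with the sign of replicate 1 turned at 5 min (adjusted p = 0.0958) or at 15 min (0.066).

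**Figure D3:**
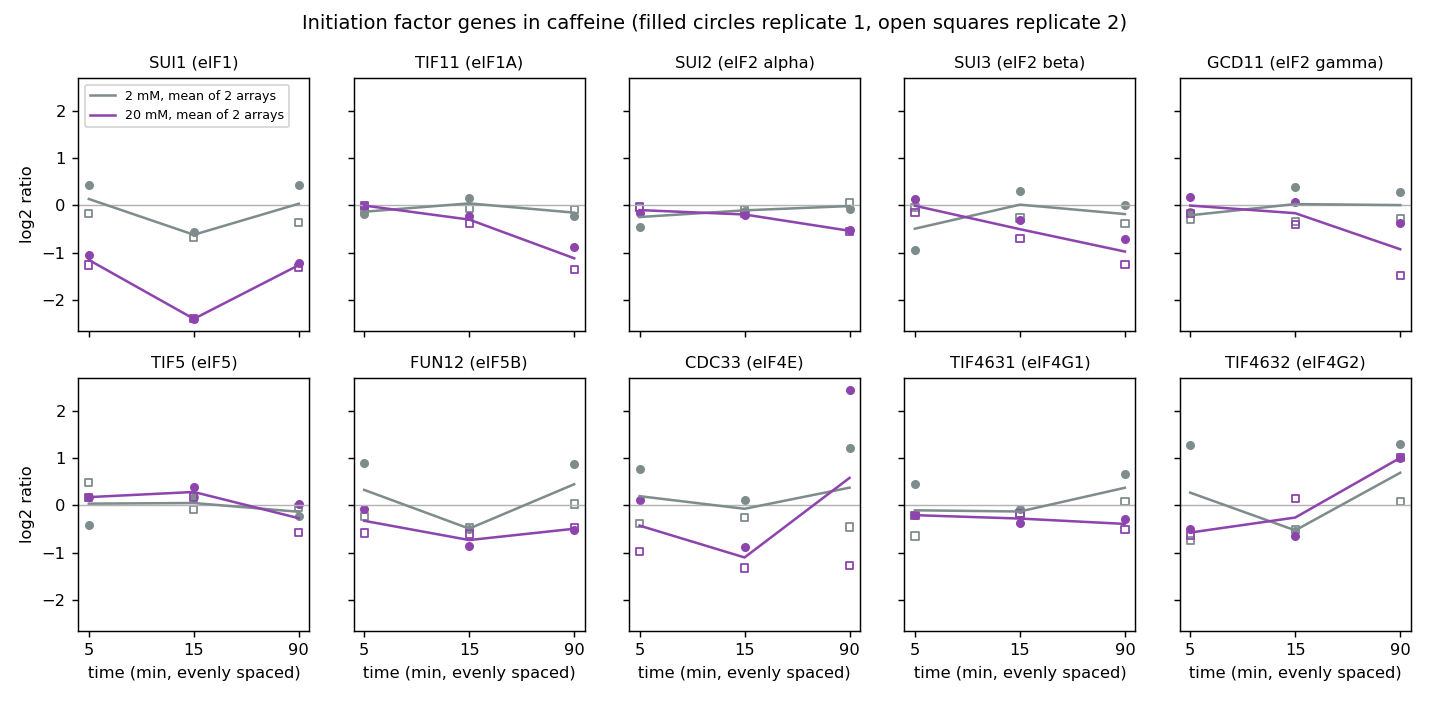
Log2 ratio (y axis) of each of the 10 genes at 5, 15 and 90 min of caffeine (x axis, evenly spaced), in grey for 2 mM and purple for 20 mM, with lines through the means of the 2 arrays, filled circles for replicate 1 and open squares for replicate 2. The 20 mM line of SUI1 is at -1.16, -2.40 and -1.26, while those of TIF11, SUI3 and GCD11 are near 0 at 5 min and lowest at 90 min.

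Calcofluor white lowered a few of the genes at 90 min. At 0.1 mg/ml TIF11 measured -0.62 and -0.66, a mean of -0.64 ± 0.10 (adjusted p = 8.66e-05). FUN12 measured -0.17 and -1.08, a mean of -0.62 ± 0.18 (adjusted p = 0.0235). SUI1 measured 0.01 and -0.97, a mean of -0.48 ± 0.16 (adjusted p = 0.0413). The arrays of TIF11 stood together, whereas the lower values of FUN12 and SUI1 were those of replicate 2.

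The 3 genes that fell, of 10, stand beside 14.8% of all genes changed and 8.38% lower. Only 1 of the 10 passed without the dye term, beside 231 of 5216 genes. With all arrays scaled to 1 spread it was also 1, beside 352 of 5216. Without replicate 2 only TIF11 passed (-0.64, adjusted p = 0.0096), with FUN12 at -0.37 and SUI1 at -0.20. SUI1 also missed the threshold without the dye term (adjusted p = 0.434), with all arrays scaled to 1 spread (-0.33, adjusted p = 0.233), with array weights (adjusted p = 0.075), with floored spots kept (0.0567) and with the sign of replicate 1 of caffeine 2 mM turned at 5 min (0.0699) or at 15 min (0.0738). CDC33 was the lowest member by its mean (-0.72 ± 0.34), from arrays at 0.26 and -1.70, and did not pass (adjusted p = 0.184).

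At 0.02 mg/ml TIF11 was the member that fell, with arrays at -0.45 and -0.60 and a mean of -0.52 ± 0.10 (adjusted p = 0.00103). It is 1 of 10, beside 11.2% of all genes changed and 5.64% lower, and it did not pass without replicate 2 (adjusted p = 0.0744). SUI1 measured -0.03 and -0.86 there, and its mean of -0.45 ± 0.16 missed the threshold (adjusted p = 0.0709). The means of all 10 genes ranged from -0.52 (TIF11) to 0.07 (TIF5), with 9 of 10 below 0.

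Congo red gave 0 calls among the 10 genes at 90 min. Over all genes 1.38% changed at 0.1 mg/ml and 0.691% at 0.02 mg/ml. The 2 arrays of a dose did not run together over all genes (r = -0.124 at 0.1 mg/ml and -0.115 at 0.02 mg/ml). The 0 calls therefore do not show that the genes did not respond. At the higher dose the means of the members ran from -0.45 ± 0.35 (CDC33) to 0.25 ± 0.13 (SUI2), and TIF11 measured -0.14 and -0.09. At an unadjusted p under 0.05 there were 0 of 10 in either dose, beside 10.1% of all genes at 0.1 mg/ml and 6.87% at 0.02 mg/ml.

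Congo red minus calcofluor white, both at 0.1 mg/ml and 90 min, was tested directly. TIF11 was higher with congo red by 0.53 ± 0.13 (95% interval 0.25 to 0.81), the smallest adjusted p of the group at 0.0915. It was also the 1 member at an unadjusted p under 0.05, so 0 of 10 passed, beside 0.288% of all genes. With the arrays of these 2 drugs alone, 1 member passed, but the count of all genes in that fit is not given here. Over the settings the count of all genes ran from 0 to 54. For SUI1 the difference was 0.39 ± 0.22 (95% interval -0.07 to 0.85).

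At 5 and 15 min of the dyes the 10 genes stayed near 0, with 0 called in any of the 8 conditions. All means lay between -0.37 (TIF4632, calcofluor white 0.02 mg/ml at 5 min) and 0.31 (CDC33, congo red 0.1 mg/ml at 5 min). The share of all genes called was 0% for calcofluor white 0.02 mg/ml at 5 and 15 min, 0% and 0.0197% for 0.1 mg/ml. It was 0% and 0.0187% for congo red 0.02 mg/ml at 5 and 15 min, and 0.0187% and 0% for 0.1 mg/ml. Over the 11 tested conditions without a called member, 3 of 110 values had an unadjusted p under 0.05, beside 0.84% to 10.8% of all genes in a condition. They were FUN12 and TIF4632 in caffeine 2 mM at 90 min and TIF11 in calcofluor white 0.02 mg/ml at 15 min (-0.25 and -0.19).

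**Figure D4:**
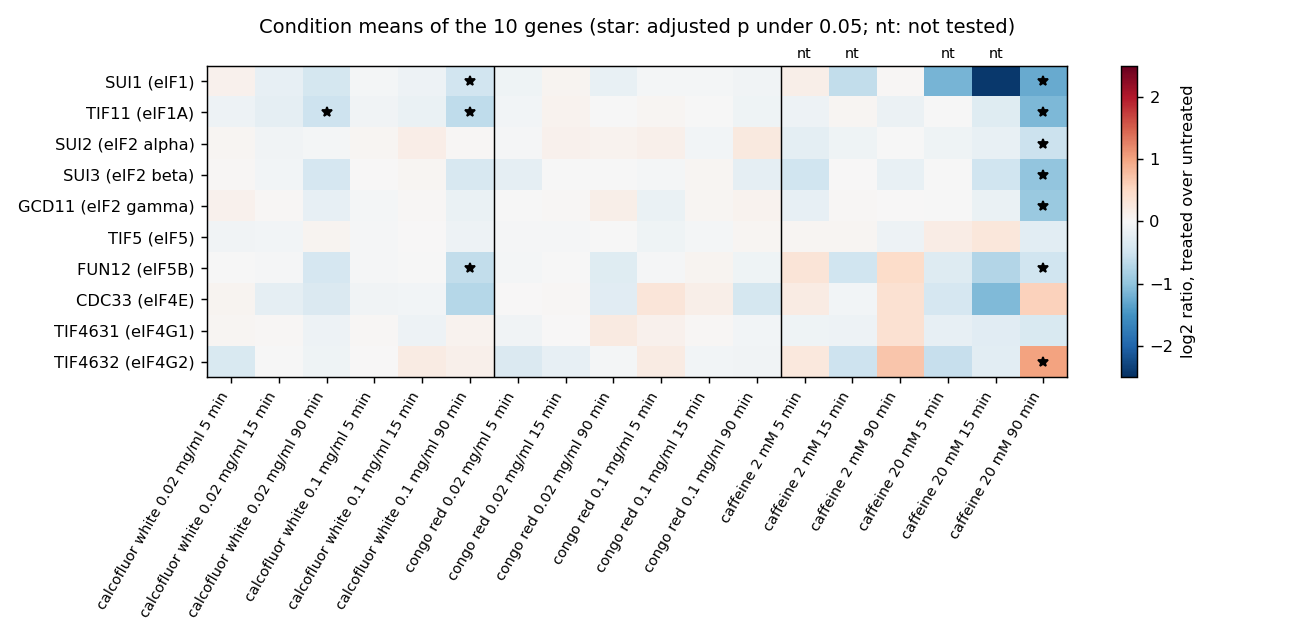
Condition means of the 10 genes (rows) in the 18 conditions (columns) as log2 ratios, blue below 0 and red above, with a star where the adjusted p was under 0.05 and "nt" over the 4 caffeine conditions that chose the list and were not tested. The stars lie in the 90 min columns: 7 in caffeine 20 mM, 3 in calcofluor white 0.1 mg/ml and 1 in 0.02 mg/ml.

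Caffeine 20 mM minus the mean of both dyes at 0.1 mg/ml, all at 90 min, reuses the caffeine arrays of the comparisons above. In it SUI1 stood at -0.98 ± 0.19 (adjusted p = 0.000668), GCD11 at -0.89 ± 0.19 (0.00151) and TIF11 at -0.74 ± 0.12 (9.32e-05). SUI2 stood at -0.67 ± 0.16 (0.0034) and SUI3 at -0.66 ± 0.21 (0.022). These 5 were lower with caffeine, beside 29.9% of all genes different and 14.4% lower. FUN12, which fell in caffeine 20 mM and in calcofluor white 0.1 mg/ml, differed by -0.12 ± 0.22 (95% interval -0.59 to 0.34).

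CDC33 was called higher with caffeine than with the dyes, at 1.17 ± 0.42 (adjusted p = 0.0406, beside 15.5% of all genes higher). Without replicate 1 of caffeine 20 mM the difference was -0.08, and without replicate 2 it was 2.42, so its direction depends on 1 array. TIF4632 was near the threshold (0.99 ± 0.38, adjusted p = 0.0546). With all arrays scaled to 1 spread 0 of the 10 genes passed. Without the dye term 2 did, but the count of all genes in that fit is not given here. The count over all genes ran from 226, with all arrays scaled to 1 spread, to 1539 over the settings. Fewer members also passed without replicate 2 of caffeine 20 mM.

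The genes did not follow 1 course over the 18 conditions. As a description over the condition means, which share the 36 arrays, the highest Pearson r was between SUI3 and GCD11 (0.87), SUI3 and TIF11 (0.85) and GCD11 and TIF11 (0.84). SUI2, the remaining eIF2 subunit, had r of 0.78 with GCD11, 0.72 with SUI3 and 0.62 with TIF11. SUI1 had r of 0.76 with FUN12, above that of 96.0% of the 4241 genes compared, and 0.42 with TIF11, above 80.0%. With replicate 1 of caffeine 2 mM turned at 5 min these correlations were 0.71 and 0.42, and turned at 15 min 0.77 and 0.45. TIF5 ran against CDC33 (-0.72) and TIF4632 (-0.67). Over the 14 conditions that did not choose the list, the order was another. There r of SUI1 was 0.94 with TIF11 (above 98.2% of genes), 0.92 with GCD11 (96.8%), 0.92 with SUI3 (96.8%) and 0.72 with FUN12 (83.0%). Over 13 conditions, without caffeine 20 mM at 90 min, these correlations were 0.84, 0.60, 0.72 and 0.82.

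Among 4241 other genes, those with the course most like that of SUI1 over 18 conditions were PAU20 (r = 0.95), GPP1 (0.95), FCF2 (0.95), ILV1 (0.94) and UIP5 (0.94). With replicate 1 of caffeine 2 mM turned at 15 min the same 5 genes led, and turned at 5 min 4 of them did, with RPB9 in place of PAU20. The 18 conditions include the 4 that selected SUI1, so that this likeness rests in part on the selecting values and is a description only. PAU20 belongs to a family of very similar genes, so its spots are uncertain. FCF2, a pre-rRNA processing factor, measured -0.64, -2.92 and -2.10 at 5, 15 and 90 min of caffeine 20 mM. GPP1, a glycerol-3-phosphatase, measured -0.49, -0.95 and -0.54, and ILV1, the threonine deaminase of isoleucine synthesis, -0.44, -1.12 and -0.75. Of these, FCF2 was lower than SUI1 at 15 and 90 min and the others were nearer to 0 throughout.

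Over the 14 conditions alone the list was STO1, TIF3, ERB1, APE2 and RPL26B, with r of 0.98 each. In caffeine 20 mM at 90 min, where SUI1 was lowest of these conditions (-1.26), the genes measured -0.88 (ERB1) to -1.47 (RPL26B). Their r without that condition is not given here. TIF3 is itself an initiation factor (eIF4B), STO1 is a subunit of the nuclear cap-binding complex, and RPL26B is a ribosomal protein gene. At 5 min of caffeine 20 mM their means lay between -0.23 (RPL26B) and -0.01 (ERB1), against -1.16 for SUI1.

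Of 18 further initiation factor genes, 16 had values on both arrays of caffeine 20 mM at 90 min, of which 12 fell and 0 rose, with a median of -0.59. Over all genes 22.5% fell and 22.1% rose there. This list and those of the next paragraphs were drawn up with earlier results of these data known. With all arrays scaled to 1 spread 3 of the 16 fell, beside 7.61% of all genes. TIF1, one of the gene pair of the helicase eIF4A, was at -1.21 ± 0.14 (adjusted p = 5.38e-07, TIF2 is nearly identical and may share its signal). TIF3 was at -1.14 ± 0.13 (4.19e-07), the eIF3 subunit TIF34 at -0.90 ± 0.18 (0.000268) and RLI1, which recycles ribosomes, at -0.63 ± 0.15 (0.00176). The scaffold subunit of eIF3, RPG1, was nearest to 0 (-0.07 ± 0.13). At 90 min 3 of 17 fell in calcofluor white 0.1 mg/ml (8.38% of all genes) and 0 of 17 changed in congo red 0.1 mg/ml (1.38% of all genes). In caffeine 20 mM at 5 min the median of this list was 0.03.

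Of 6 genes of the eIF4E-binding proteins and the Gcn2 pathway, 2 rose and 3 fell in caffeine 20 mM at 90 min, beside 22.1% and 22.5% of all genes. GCN2, the eIF2 kinase, was at 0.58 ± 0.19 (adjusted p = 0.0196) and GCN4, the activator whose translation that kinase increases, at 0.54 ± 0.12 (0.00103). GCN1, which activates Gcn2, was at -0.74 ± 0.15 (0.000497), and CAF20, an eIF4E-binding protein, at -0.68 ± 0.13 (0.000296). GCN4 is a target of the pathway and not a repressor of initiation. With all arrays scaled to 1 spread 0 of these 6 genes passed, beside 17.1% of all genes.

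Of 11 elongation and termination factor genes 8 fell and 0 rose there, beside 22.5% and 22.1% of all genes, with a median of -0.73. With all arrays scaled to 1 spread 5 fell and 0 rose, beside 7.61% and 9.45% of all genes. The elongation factor 2 genes EFT1 and EFT2, near-identical copies, stood at -1.19 ± 0.13 (2.65e-07) and -0.97 ± 0.10 (2.03e-07). YEF3, the fungal elongation factor 3, was at -1.10 ± 0.16 (1.06e-05) and HYP2, which encodes eIF5A, at -0.97 ± 0.11 (6.02e-07). In caffeine 20 mM at 5 and 15 min the median of this list was -0.13 and -0.46.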

How the data were processed

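The authors' deposited values were read as natural log (ln) ratios per spot, and they have a mean of 0 on every array. This log base was inferred from the numbers and no check of it is shown here. All log2 and fold values rest on it. How the authors scanned, background-corrected and normalized the arrays is not given in the sources used here. The platform annotation names a gene for 11872 of 15488 spots. Each array repeats 1 floor value on 1.61% to 16.1% of named spots, and these were set missing. Values were divided by 0.6931 (log2), averaged per gene, and each array was centred on its median gene.

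The dye orientations of caffeine 20 mM correlated at 0.672 (90 min) and 0.532 (15 min), and both were read the same way. Elsewhere r was between -0.524 and 0.148. Treated over untreated was assumed.

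Limma 3.58.1 (R 4.3.3) modelled all 36 arrays by 18 conditions plus dye orientation, which is also the replicate block. In 153 of 153 pairs of conditions, same-numbered arrays deviated together with r over 0.1 (0.113 to 0.784). Genes needed values on 24 arrays and no missing value in the conditions compared (5391 had enough arrays), with 17 residual degrees of freedom. Precision is limited by the number of arrays (median SE 0.165). The fit was tested on simulated data.

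The members and the 3 other gene lists were chosen with earlier results of these data known. Named genes are the 10 members, up to 4 genes of each other list with the smallest p in caffeine 20 mM at 90 min, and the 5 genes with the highest Pearson r to SUI1. Genes named beyond these, to show a range, were chosen after their values were seen. Alternatives were no block, no centring, equal spread of arrays, array weights, floored spots kept, genes on all arrays, arrays of the drugs compared only, turned signs and each array left out. Sequences and coordinates are not used here. Python 3.11.15, numpy 2.4.6 and pandas 2.3.3 prepared the values.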

Additional observations from a re-analysis of the deposited data

Results flagged for a closer look

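Responses that differed between doses or drugs by a direct limma contrast are listed here for a closer look. Between caffeine 20 and 2 mM at 90 min the log2 differences were -1.30 for SUI1, -0.52 for SUI2, -0.79 for SUI3, -0.94 for GCD11, -0.97 for TIF11 and -0.94 for FUN12. Between caffeine 20 mM and the mean of the dyes at 0.1 mg/ml they were -0.98 for SUI1, -0.67 for SUI2, -0.66 for SUI3, -0.89 for GCD11, -0.74 for TIF11 and 1.17 for CDC33. The contrasts share the caffeine 20 mM arrays, and the value of CDC33 has opposite signs on them.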

How the results depend on the processing

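The count of members past the threshold was 7 in caffeine 20 mM at 90 min, beside 44.6% of all genes. With all arrays scaled to 1 spread (equal spread) it was 4, beside 17.1%. It was 5 without the replicate block (26.4%), with array weights (29.2%) and with the caffeine arrays alone (31.0%). It was also lower without either array. For calcofluor white 0.02 mg/ml at 90 min it was 1, beside 528 of 4702 genes. It was 3 without centring (667 genes), 2 with array weights (605) and 2 with floored spots kept (593 of 5713). With the sign of replicate 1 of caffeine 2 mM at 5 min turned it was also 2 (504 genes). With the calcofluor white arrays alone it was 4 (838 of 4696). It also depended on which array was left out. For 0.1 mg/ml it was 3, beside 772 of 5216 genes. It was 1 without the replicate block (231 genes) or with equal spread (352). With the calcofluor white arrays alone it was 5 (1109 of 5208), and it was lower without replicate 2. For caffeine 20 minus 2 mM it was 6, beside 1238 of 5262 genes. It was 2 without the replicate block (502 genes), 1 with equal spread (150) and 3 with the caffeine arrays alone (604 of 5287). It was also lower with any 1 array left out. For congo red minus calcofluor white it was 0, beside 15 of 5207 genes (0 to 54 over the settings). With the arrays of those drugs alone it was 1 (count of all genes not given here). For caffeine minus the dyes it was 6, beside 1539 of 5139 genes. It was 2 without the replicate block (count of all genes not given here) and 0 with equal spread (226 genes). It was lower with some arrays left out.

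SUI1 in caffeine 20 mM at 15 min was -2.34 without centring, -1.56 with equal spread and -2.65 to -2.16 with an array left out. In caffeine 2 mM it was -0.054 at 15 min and -0.31 at 5 min with the sign of replicate 1 turned, the former chosen after seeing the data, and -0.80 to -0.44 at 15 min with an array left out. Its sign near 0 turned in caffeine 2 mM at 90 min (-0.16 with equal spread, -0.15 to 0.23 with an array left out), in calcofluor white at 5 min (-0.093 to 0.30 at 0.02 mg/ml, -0.25 to 0.16 at 0.1 mg/ml) and in congo red at 15 min (-0.091 to 0.21 at 0.02 mg/ml, -0.26 to 0.16 at 0.1 mg/ml). CDC33 in caffeine minus the dyes ran from -0.085 to 2.42.

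Of 36 single values followed, 24 kept their direction and side of the threshold without the replicate block, 34 without centring, 19 with equal spread, 31 with array weights, 32 with floored spots kept, 36 with genes on all arrays and 30 with the arrays of the drugs compared. Without centring the median of all genes moved to -0.12 in caffeine 20 mM at 90 min, -0.14 in calcofluor white 0.02 mg/ml at 90 min, -0.10 in caffeine 2 mM at 5 min, 0.14 in congo red minus calcofluor white and -0.13 in caffeine minus the dyes. The causes were not tested. The count over all genes in caffeine 20 mM at 90 min was 2352 and ran from 899 to 2381 over the settings. For calcofluor white at 90 min it was 528 (135 to 838) at 0.02 mg/ml and 772 (228 to 1109) at 0.1 mg/ml, for congo red at 90 min 37 (9 to 337) and 74 (16 to 108), and for caffeine 2 mM 0 (0 to 35). The dose difference gave 1238 (150 to 1267), congo red minus calcofluor white 15 (0 to 54) and caffeine minus the dyes 1539 (226 to 1539). For the dyes at 5 and 15 min it was 0 or 1, with up to 115 (calcofluor white 0.1 mg/ml at 15 min without replicate 2).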
